A study of Homo sapiens with 16 samples.

Results

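The transition from the transformed to the metastasizing stage of the BJ fibroblast model was examined at atmospheric oxygen in 4 of the 16 libraries of the series. The libraries labelled transformed came from BJ hTERT+ SV40+ cells and those labelled metastasizing from BJ hTERT+ SV40+ Ras G12V cells, so both carry the telomerase subunit hTERT and SV40 Large-T, and the labels separate them by the mutated H-Ras alone. BJ is a human foreskin fibroblast line, and the labels name 1 isogenic line for each stage, so a difference between stages is also a difference between 2 lines. Each line was grown in DMEM with fetal bovine serum for 6 passages, on duplicate plates in parallel, and poly-A RNA was sequenced with a stranded kit. The plates are the replicates (a and b), so a p-value here rests on the spread between plates of a line, not between lines. Unless stated otherwise, that spread was estimated over all 8 groups of the series. For comparison, the same 2 stages grown at 3% oxygen (4 libraries) are used further on. Members of the comparison were the 12203 protein-coding genes whose mean in either group reached 1 TPM, a unit that gives each transcript, corrected for its length, as a part of its library's total.

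H-Ras is a small GTPase that relays signals from growth factor receptors. In its GTP-bound form it activates the RAF, MEK and ERK kinases, and ERK in turn raises transcription factors such as FOS and ETV and the feedback inhibitors of the DUSP, SPRY and SPRED families. The G12V change holds the protein in the GTP-bound form. SV40 Large-T binds and inactivates p53 and the retinoblastoma proteins, and a fibroblast that carries hTERT, SV40 antigens and mutated H-Ras grows without anchorage.

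TPM hold no read counts, so the depth behind each value is unknown. In the 4 libraries 88.2% to 88.7% of the TPM could be assigned to a gene, 11767 to 11918 protein-coding genes exceeded 1 TPM, and the labels give a mean insert size of 263.74 bases for transformed replicate b against 313.57 to 325.2 bases in the other 3. Between the 2 plates of a group, 1.91% (transformed) and 1.89% (metastasizing) of genes of at least 1 TPM differed more than 2-fold, whereas 11.0% did so in the libraries labelled metastasizing at 3% oxygen, which stand apart and share the variance estimate of the fit. Mitochondrially encoded RNA differed between plates of the same group (1.16% and 2.42% of TPM in transformed, 2.04% and 3.76% in metastasizing libraries). All 12 fibroblast markers of the list used here had a mean of at least 1 TPM in both groups, with a summed level of 7300 to 7420 TPM in transformed and 6780 to 6820 TPM in metastasizing libraries. None of 9 epithelial and none of 6 endothelial markers reached 1 TPM in either group. Of 7 leukocyte markers CD68 alone did so, and of 6 melanocyte markers MITF and PMEL, while TYR and CD3E were at 0 in all 4 libraries.

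HRAS, the gene whose mutant the label of the metastasizing stage names (chromosome 11, 532242 to 537321 in GRCh37), was at 120 and 99 TPM in the libraries labelled transformed and at 94.6 and 78.1 TPM in those labelled metastasizing. The highest value lay in a transformed library and the difference did not pass the test (log2 fold change -0.34 ± 0.55, where the error is the SE as for all fold changes below, adjusted p = 0.715, limma with Benjamini-Hochberg adjustment). Its main coding transcript, HRAS-201, gave 57.3 and 54.3 TPM against 55.5 and 49.6 TPM. At 3% oxygen HRAS was at 49.4 and 61.8 TPM in transformed and at 143 and 772 TPM in metastasizing libraries. That step passed the limma test in the fit over all 16 libraries (log2 fold change 2.58, adjusted p = 0.00635) and in 8 of 13 alternative fits. The fit gives all groups the same spread, which is likely too small for the metastasizing plates at 3% oxygen, and so is this p-value. The study reports that authentication with variants called from its RNA reads bore out the isogenic cells and the mutations of the stages. It also reports that low oxygen raised the mutated HRAS in metastasizing cells and lowered HRAS in transformed cells. TPM summed over transcripts cannot tell the G12V allele from the endogenous gene, and at atmospheric oxygen the level of HRAS did not separate the labels. Transformed and metastasizing libraries are therefore, throughout, the libraries that carry these labels. The difference between the oxygen levels missed the threshold for HRAS (2.92 on the log2 scale, adjusted p = 0.0195). NRAS, a related small GTPase, was at 70.8 and 65.5 against 77 and 82.9 TPM and did not pass (adjusted p = 0.125). TERT, the telomerase gene that both lines received, was at 35.4 and 31.6 against 68.2 and 56.9 TPM, with both metastasizing libraries above both transformed ones and an adjusted p of 0.114.

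The 2 groups differed by more than their plates did. Across the genes tested, Spearman's rho was 0.9901 between the transformed plates, 0.9875 between the metastasizing plates and 0.9597 to 0.9657 between plates of different groups. A gene was called when its adjusted p was under 0.01 and its level differed more than 2-fold on the log2(TPM + 0.5) scale, which understates the change of low genes. By this rule 503 genes were called (4.12% of 12203), of which 293 were higher (2.4%) and 210 lower (1.72%) in the libraries labelled metastasizing, with 45 and 39 of them beyond 4-fold. With quantile normalization 243 genes were higher and 262 lower, so which direction held more genes depended on the scaling. The 2 plates of one group did not overlap with those of the other for any called gene, which also held for 68.5% of all genes tested. Over all genes tested the median log2 fold change was 0.063, 56% of genes were higher and 33.5% had an unadjusted p under 0.05, which with the shares called are the values to set beside the gene lists below. Leaving out any 1 of the 4 libraries reduced the count to between 256 and 313, in a fit where the lone plate is assumed to vary like the other groups, and leaving out both metastasizing libraries at 3% oxygen raised it to 670.

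**Figure D1:**
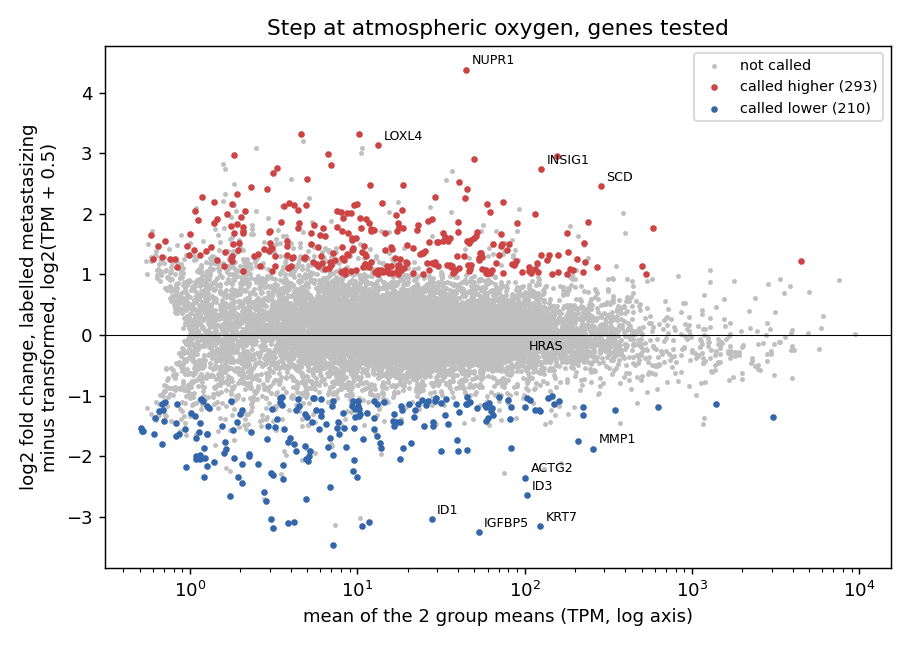
Log2 fold change (libraries labelled metastasizing minus transformed, log2(TPM + 0.5)) against the mean level in TPM on a log axis, 1 point for each of 12203 genes. Red points are the 293 genes called higher and blue points the 210 called lower, and HRAS lies among the grey genes that were not called.

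The largest rise was in NUPR1, a stress-induced chromatin-associated protein, from 3.51 and 3.75 TPM to 93 and 78.6 TPM (log2 fold change 4.38 ± 0.54, adjusted p = 0.000362). LOXL4, a lysyl oxidase that crosslinks collagen, stood at 2.48 and 2.17 TPM and 24.6 and 23.9 TPM (3.13 ± 0.21, adjusted p = 1.83e-05). INSIG1, the sterol sensor that retains SREBP in the endoplasmic reticulum, stood at 31.6 and 33.3 TPM and 212 and 227 TPM (2.74 ± 0.17, adjusted p = 1.54e-05). In each of the 3 genes the plates of a group lay close together and far from the other group. INHBE and GDF15, both secreted members of the TGF-beta superfamily, rose from 0.208 and 0.694 to 9.11 and 8.33 TPM and from 1.27 and 1.66 to 22.2 and 16.1 TPM, respectively. The guanylate cyclase subunit GUCY1A2 (2.81 ± 0.17), the circadian repressor BHLHE41 (2.75 ± 0.36), the transmembrane protein TMEM45A (2.90 ± 0.14) and HMSD (2.99 ± 0.25) also rose. RAD51B was called (2.95 ± 0.60) although the plates of each group differed widely, with 70.9 and 14.1 TPM against 367 and 169 TPM. It missed the threshold with only the 4 libraries (adjusted p = 0.0352), without a filter on low values (0.013) and in 3 of 4 fits that left out a library (adjusted p up to 0.0558). INHBE missed it without transformed replicate a (adjusted p = 0.011), and GDF15 without metastasizing replicate a or transformed replicate a (up to 0.0134).

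In bulk RNA a lower level in every cell and fewer cells that express a gene cannot be told apart. Among the 10 largest falls were 2 keratins and several signalling genes. KRT7, a keratin of simple epithelia, fell from 212 and 231 TPM to 24.7 and 24.3 TPM (-3.15 ± 0.26, adjusted p = 3.3e-05), and the hair keratin KRT81 from 22.5 and 20 to 2.73 and 1.54 TPM. IGFBP5, a secreted protein that binds insulin-like growth factors, fell from 96.3 and 96.9 TPM to 9.84 and 9.58 TPM (-3.25 ± 0.27, adjusted p = 3.3e-05). ID1, which blocks the DNA binding of basic helix-loop-helix factors, fell from 53.9 and 46 TPM to 6.73 and 4.71 TPM (-3.03 ± 0.41, adjusted p = 0.000604). The somatostatin receptor SSTR1 (-3.15 ± 0.25), the nuclear pore protein NUP210 (-3.08 ± 0.21), the dehydrogenase DHRS2 (-3.18 ± 0.26) and the kinase STK32B (-3.03 ± 0.23) fell as well, and each was under 2 TPM in both metastasizing libraries. FNDC10 (-3.46 ± 0.47) missed the threshold without metastasizing replicate b (adjusted p = 0.0106), and the LIM protein CRIP1 (-3.09 ± 0.60) with any 1 of the 4 libraries left out (adjusted p = 0.0345 to 0.0379) or without a filter on low values (0.0112).

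**Figure D2:**
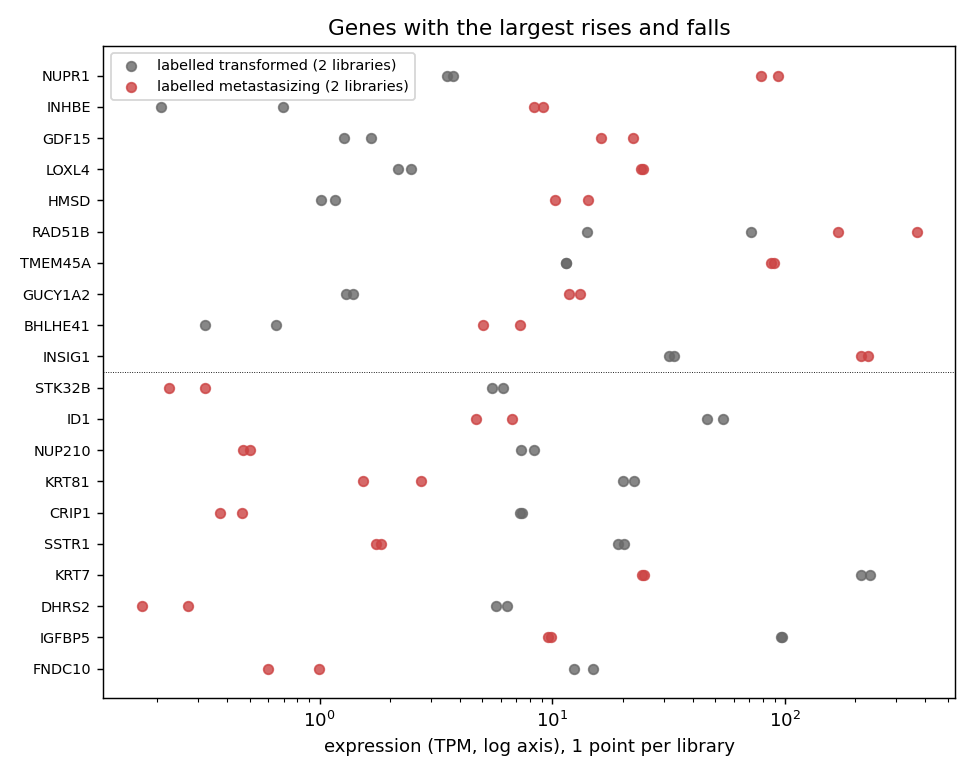
TPM on a log axis in each of the 4 libraries for the 10 largest rises (above the dotted line) and the 10 largest falls among called genes of at least 5 TPM in the higher group. Each point is 1 library. Groups that do not overlap were a condition for a gene to be shown, which 68.5% of all genes tested met. The plates of RAD51B are spread most, from 14.1 to 70.9 TPM in the transformed group.

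No gene of the RAS pathway core passed the test. None of 22 members (GTPases, kinases, adaptors, exchange factors and GTPase activating proteins) was called with limma, 7 had an unadjusted p under 0.05 (31.8% against 33.5% of all genes), and their median log2 fold change was 0.172 against 0.063 for all genes. The members with the highest levels were SHC1, the adaptor that couples receptors to RAS (181 and 215 against 166 and 145 TPM), MAP2K2, one of the MEK kinases (170 and 162 against 174 and 142 TPM), and the GTPase RRAS2 (136 and 121 against 163 and 175 TPM), with adjusted p = 0.0552, 0.8 and 0.0457. Among 31 genes known to respond to ERK, 2 rose and 1 fell (9.68% called against 4.12% of all genes). Of the 31, 15 had an unadjusted p under 0.05 (48.4% against 33.5% of all genes). Their median was -0.0266, and -0.0514 to -0.00536 with 1 library left out. The feedback inhibitor SPRY1 was at 0.815 and 0.496 against 1.91 and 2.55 TPM (1.24 ± 0.20) and the transcription factor ETV1 at 2.06 and 2.25 against 8.46 and 9.21 TPM (1.81 ± 0.40), whereas the receptor EPHA4 fell from 16.5 and 16.3 to 5.17 and 7.88 TPM (-1.29 ± 0.20). SPRY1 missed the threshold without metastasizing replicate b or transformed replicate b and with only the 4 libraries (adjusted p up to 0.028), and on size with a pseudocount of 1. ETV1 missed it with any 1 library left out (0.044 to 0.067) and in 5 of 10 other fits (up to 0.0193), and EPHA4 in 3 of those 4 fits (up to 0.0153). The other ERK-responsive genes, including 10 of 11 feedback inhibitors and 11 of 12 transcription factors, were not called. None of 8 EGF family ligands and receptors was called either, with NRG1 at 60.7 and 64.3 against 48.7 and 55 TPM and HBEGF at 35.1 and 36.5 against 31.1 and 31.1 TPM. Of the 8, 3 had an unadjusted p under 0.05 (37.5% against 33.5% of all genes).

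Secreted inflammatory factors had a high median, with 1 of 17 called higher (5.88% against 2.4% of all genes). Of the 17, 10 had an unadjusted p under 0.05 (58.8% against 33.5% of all genes). Of 17 tested genes of the inflammatory secretome 15 were higher in the libraries labelled metastasizing (median 1.14, where 56% of all genes were higher), and ICAM1, the leukocyte adhesion molecule, was the only member called, at 17.9 and 17.1 against 59.4 and 48.9 TPM (1.60 ± 0.26, adjusted p = 0.00165). It missed the threshold with any 1 of the 4 libraries left out (0.0105 to 0.0183). The monocyte chemokine CCL2 was at 222 and 214 against 472 and 492 TPM (adjusted p = 0.132), the mitochondrial dismutase SOD2 at 69.9 and 78.4 against 171 and 159 TPM (0.101) and the chemokine CXCL12 at 261 and 261 against 403 and 415 TPM (0.0704). The plates of a group lay close together for all 3, and their standard errors of 0.46 (SOD2) and 0.49 (CCL2) on the log2 scale come from all 8 groups. When the spread was estimated from the 4 libraries alone, 9 of the 17 were called higher, CCL2 and SOD2 among them (adjusted p = 0.00101 and 0.00158). None of 13 NF-kB subunits and feedback targets was called (median 0.167, 3 at an unadjusted p under 0.05, 23.1% against 33.5% of all genes), with the subunit RELA at 58 and 56.6 against 52.6 and 44.9 TPM. None of 28 interferon-stimulated genes was called (median 0.192, 0 at an unadjusted p under 0.05, 0%). The antiviral gene IFITM1 was at 1260 and 1250 against 2430 and 2220 TPM. MX1, also antiviral, was at 786 and 793 against 742 and 746 TPM. These p-values too rest on the spread of all 8 groups. With only the 4 libraries, IFITM1 had an adjusted p of 0.00141 and MX1 of 0.332, and none of the 28 was called. For 8 genes of class I antigen presentation the median was 0.683, 3 had an unadjusted p under 0.05 (37.5% against 33.5% of all genes) and none was called. B2M, its light chain, had an adjusted p of 0.00702, under the 0.01 that 8.63% of all genes passed, but rose less than 2-fold, from 5180 and 5270 to 9370 and 10300 TPM.

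Of the genes that respond to low oxygen, 8 of 18 rose in the libraries labelled metastasizing, with all 4 libraries from cells at atmospheric oxygen. HIF, the factor behind this response, is degraded when oxygen is plentiful. It binds the core letters ACGTG in the promoters of genes for pH control, mitophagy, angiogenesis and collagen synthesis. In the study's immunofluorescence, HIF1a protein was raised in both of these stages at atmospheric oxygen and did not rise further in hypoxia. None of the 18 was called lower (44.4% higher calls against 2.4% of all genes), 16 lay above 0, and their median was 1.21. The number called was 5 or 6 with any 1 library left out and 11 without both metastasizing libraries at 3% oxygen. The 250 bases before the start site of 4 of the called genes are printed to show the core letters, in capitals where they occur on either strand (RefSeq, GRCh38.p14, strand of the gene):
CA9: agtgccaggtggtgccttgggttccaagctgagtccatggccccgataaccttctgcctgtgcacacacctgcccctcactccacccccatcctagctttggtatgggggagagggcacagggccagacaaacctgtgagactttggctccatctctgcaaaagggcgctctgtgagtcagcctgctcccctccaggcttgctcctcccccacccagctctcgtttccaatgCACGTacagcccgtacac
LOX: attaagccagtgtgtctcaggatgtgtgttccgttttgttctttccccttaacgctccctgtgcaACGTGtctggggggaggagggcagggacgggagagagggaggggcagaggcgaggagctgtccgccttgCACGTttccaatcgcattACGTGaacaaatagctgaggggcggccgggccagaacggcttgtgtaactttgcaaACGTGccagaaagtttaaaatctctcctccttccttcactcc
BNIP3: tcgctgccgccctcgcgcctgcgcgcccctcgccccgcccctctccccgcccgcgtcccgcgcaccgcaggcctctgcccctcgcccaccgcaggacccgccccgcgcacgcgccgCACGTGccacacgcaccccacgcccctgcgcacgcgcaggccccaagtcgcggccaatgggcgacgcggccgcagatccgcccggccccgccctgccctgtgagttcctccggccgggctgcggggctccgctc
P4HA1: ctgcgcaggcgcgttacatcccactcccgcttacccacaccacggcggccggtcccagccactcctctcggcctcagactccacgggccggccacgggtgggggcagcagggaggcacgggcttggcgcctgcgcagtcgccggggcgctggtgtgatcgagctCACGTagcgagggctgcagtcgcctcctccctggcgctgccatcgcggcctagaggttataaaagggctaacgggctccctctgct
They lie at chr9:35673678-35673927, chr5:122078260-122078509, chr10:131981924-131982173 and chr10:73096867-73097116, on the plus strand for CA9 and on the minus strand for the others. ACGTG or its complement began 18 bases before the start of CA9, 86 before that of P4HA1, and at 4 places from 42 to 185 bases before that of LOX. In BNIP3 the letters on both strands overlap at 133 and 134 bases. Such letters were found in 9 of the 13 tested hypoxia targets with a promoter in the table, in 4 of 5 that were called, in 5 of 8 that were not, and in 18.7% of all 27305 promoters, and a match is a description of the sequence alone.

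The mitophagy receptor BNIP3 (chromosome 10, 133781188 to 133795471 in GRCh37) rose from 115 and 117 to 333 and 338 TPM (1.53 ± 0.18, adjusted p = 0.000313), and its relative BNIP3L from 70.8 and 73.6 to 171 and 160 TPM (1.19 ± 0.12). NDRG1, a growth arrest gene, rose from 14.4 and 15.3 to 84.3 and 62.9 TPM (2.26 ± 0.30). The collagen crosslinker LOX rose from 107 and 98.4 to 352 and 398 TPM (1.86 ± 0.14, adjusted p = 2.92e-05), and the collagen prolyl hydroxylase subunit P4HA1 from 80.9 and 77.8 to 187 and 212 TPM (1.32 ± 0.15). In these 5 genes the call held with any 1 library left out. It did not in 3 others. VEGFA, the main angiogenic growth factor, was at 27 and 33.5 against 78 and 76.9 TPM (1.35 ± 0.23, adjusted p = 0.00241, and 0.0109 to 0.029 without 1 library). The carbonic anhydrase CA9 was at 0.231 and 0.487 against 5.42 and 3.12 TPM (0.00532, and 0.0177 to 0.0492), and the secreted glycoprotein STC2 at 54.3 and 51.5 against 137 and 114 TPM (0.0099, and 0.0386 to 0.0674). CA9 also missed it without a filter on low values (0.0112), and STC2 in 6 of 10 other fits (up to 0.0187). STC1 was at 6.08 and 5.86 against 27.5 and 30.8 TPM and missed the threshold (adjusted p = 0.0258), while with only the 4 libraries it passed (0.00101).

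The levels of these genes in 2 neighbouring groups, which hold none of the 4 libraries compared here, are given side by side. BNIP3 was at 132 and 128 TPM in immortalized cells at atmospheric oxygen and at 445 and 426 TPM in transformed cells at 3% oxygen. NDRG1 was at 140 and 111 TPM in immortalized cells and at 344 and 384 TPM in transformed cells at 3% oxygen, and VEGFA at 91 and 77.3 and 161 and 138 TPM. For these 3 genes both metastasizing libraries at atmospheric oxygen lay above the transformed ones at that oxygen level and below those at 3% oxygen. LOX differed in that its atmospheric metastasizing libraries (352 and 398 TPM) lay above the transformed ones at 3% oxygen (292 and 210 TPM).

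Glycolysis genes were mostly higher (22 of 26, median 0.439), and 2 were called higher (7.69% against 2.4% of all genes). Of the 26, 18 had an unadjusted p under 0.05 (69.2% against 33.5% of all genes). ALDOC, a fructose-bisphosphate aldolase, rose from 10.7 and 12.8 to 72.1 and 67.1 TPM (2.52 ± 0.34, adjusted p = 0.000606), and the glucose transporter SLC2A3 from 21.4 and 23.5 to 51.4 and 60.8 TPM (1.30 ± 0.10, adjusted p = 3.08e-05). PDK1, which keeps pyruvate out of the citrate cycle, had an adjusted p of 0.00434 and a log2 fold change of 0.97 ± 0.18, just inside the 2-fold limit. Of 15 angiogenic ligands and receptors, VEGFA alone was called (6.67% against 4.12% of all genes), which is also a called hypoxia target. The growth factor FGF2 was at 93.4 and 89.1 against 50.3 and 60.3 TPM (adjusted p = 0.0296), and the receptors NRP1 and FGFR1 had log2 fold changes of 0.15 ± 0.21 and 0.15 ± 0.086.

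**Figure D3:**
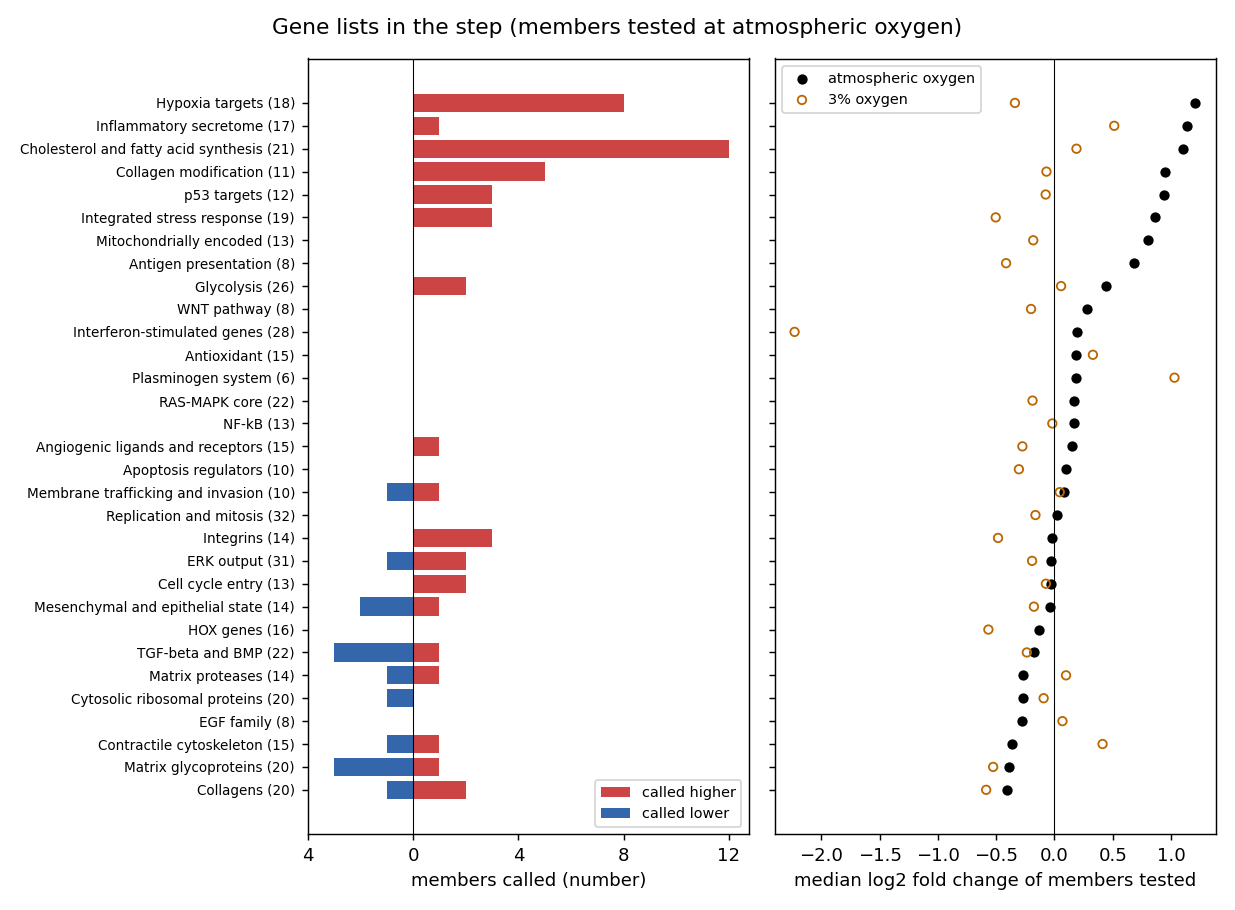
Gene lists with the number of members tested at atmospheric oxygen in brackets. The left panel shows how many members were called higher (red, to the right) and lower (blue, to the left), with 12 of 21 for cholesterol and fatty acid synthesis and 8 of 18 for hypoxia targets. The right panel shows the median log2 fold change of the step at atmospheric oxygen (filled) and at 3% oxygen (open), each over the members tested at that level. For interferon-stimulated genes these medians are 0.192 and -2.23, with only 6 of 28 called lower at 3% oxygen.

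Cholesterol and fatty acid synthesis had the most calls of any list, with 12 of 21 tested members higher (57.1% against 2.4% of all genes), none lower, and a median of 1.10. When sterol is scarce, SREBP factors leave the endoplasmic reticulum and switch on the mevalonate pathway and INSIG1. The desaturase SCD, which makes monounsaturated fatty acids, rose from 86.3 and 88.8 to 463 and 505 TPM (2.46 ± 0.34, adjusted p = 0.000689). CYP51A1 and DHCR7, enzymes of the late cholesterol pathway, rose from 42.7 and 40.7 to 113 and 125 TPM (adjusted p = 3.08e-05) and from 36.8 and 39.9 to 113 and 101 TPM (0.000654). SCD, CYP51A1, DHCR7 and INSIG1 kept the call with any 1 library left out. The number called in such fits was 5 to 7, and without both metastasizing libraries at 3% oxygen it was 14.

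HMGCS1, an early enzyme of the mevalonate pathway, rose from 24.6 and 26.5 to 50.7 and 61.3 TPM (1.11 ± 0.24, adjusted p = 0.00883). IDI1, FDFT1 and ELOVL6 were called as well, with log2 fold changes of 1.16 ± 0.22, 1.07 ± 0.23 and 1.03 ± 0.18. SREBF2, which encodes the SREBP of the cholesterol branch, was at 37.8 and 38.9 against 81.4 and 75.9 TPM (1.02 ± 0.15, adjusted p = 0.000852) and fell inside the 2-fold limit under median-ratio rescaling and quantile normalization, as did ELOVL6. SREBF2, HMGCS1, FDFT1 and ELOVL6 lie outside the rule for named genes and were chosen after their values were seen. With any 1 library left out, HMGCS1 (0.0271 to 0.0786), IDI1 (0.023 to 0.0406), FDFT1 (0.042 to 0.0546) and ELOVL6 (0.0166 to 0.0373) missed the threshold of 0.01. SREBF2 missed it without metastasizing or transformed replicate a (up to 0.0109). HMGCS1 and FDFT1 also missed it without a filter on low values (0.0158 and 0.015) and without a trend (0.0129 and 0.013), and HMGCS1 with all genes in place of protein-coding ones (0.0101). The sterol regulatory element was searched for as TCACNCCAC on both strands in the 250 bases before the start site. Of 15 tested members with a promoter in the table it was found in SREBF2 alone, 133 bases before the start, and in 0.875% of all promoters. The SREBF2 window, chr22:41832855-41833104 on the plus strand, is printed with those letters in capitals:
SREBF2: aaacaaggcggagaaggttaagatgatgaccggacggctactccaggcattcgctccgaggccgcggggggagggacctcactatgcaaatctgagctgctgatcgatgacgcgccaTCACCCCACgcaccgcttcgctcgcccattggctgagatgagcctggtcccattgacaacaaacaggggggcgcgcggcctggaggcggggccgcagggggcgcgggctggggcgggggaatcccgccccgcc

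The integrated stress response, in which ATF4 turns on genes for amino acid supply, had 3 of 19 members called higher (15.8% against 2.4% of all genes, median 0.863). ASS1, which makes argininosuccinate for arginine synthesis, rose from 24.9 and 24.1 to 87.2 and 68.8 TPM (1.64 ± 0.29, adjusted p = 0.00311). VLDLR, a lipoprotein receptor, rose from 4.75 and 5.01 to 14.8 and 13.4 TPM (1.44 ± 0.20), and the pseudokinase TRIB3 from 17.2 and 16.6 to 39.3 and 33.6 TPM (1.08 ± 0.16). ASS1 missed the threshold with any 1 library left out (0.015 to 0.0297) and TRIB3 in 3 of those 4 fits (up to 0.0146), whereas VLDLR kept it. The ATF4 composite site TGATGNAA was found in 3 of 16 promoters of this list, in none of the 3 called, and in 3.19% of all promoters.

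All 12 p53 targets tested were higher in the libraries labelled metastasizing (median 0.936), where 56% of all genes were, and 3 were called higher (25% against 2.4%). CDKN1A, the cyclin-dependent kinase inhibitor p21, rose from 46 and 45.3 to 192 and 177 TPM (2.00 ± 0.34, adjusted p = 0.00239). The death receptor FAS rose from 4.35 and 4.34 to 14 and 14.6 TPM (1.61 ± 0.25), and the autophagy gene TP53INP1 from 2.65 and 2.01 to 5.3 and 6.16 TPM (1.14 ± 0.18). CDKN2B, the inhibitor p15, rose from 7.55 and 5.98 to 23.9 and 21.5 TPM (1.68 ± 0.31, adjusted p = 0.00389). Of 13 genes of cell cycle entry the 2 called were thus both inhibitors (15.4% called against 4.12% of all genes), and CDKN1A counts in both lists. With any 1 library left out, CDKN1A (0.0184 to 0.0219), FAS (0.0126 to 0.0164) and CDKN2B (0.0185 to 0.0418) missed the threshold, TP53INP1 did so without either replicate b (up to 0.023), and it also missed it with only the 4 libraries (0.0135) and, on size, with quantile normalization. None of 32 replication and mitosis genes was called (median 0.0221, of either sign with 1 library left out, from -0.0589 to 0.102), and 8 had an unadjusted p under 0.05 (25% against 33.5% of all genes). The mitotic cyclin CCNB1 was at 471 and 460 against 405 and 435 TPM, while the replication clamp PCNA and the thymidylate synthase TYMS passed on adjusted p (0.00475 and 0.00305) with log2 fold changes of only 0.56 ± 0.11 and 0.42 ± 0.075. None of 10 BCL2 family genes was called (3 at an unadjusted p under 0.05, 30% against 33.5% of all genes), with BAX at 200 and 201 against 321 and 266 TPM.

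Genes that build the extracellular matrix moved in both directions. Of 11 enzymes that modify collagen 5 were called higher (45.5% against 2.4% of all genes) and none lower (median 0.949), namely LOXL4, LOX, P4HA1, P4HA2 and LOXL1. LOX and P4HA1 are also among the called hypoxia targets, so these lists share calls and are not independent. P4HA2 rose from 97.6 and 103 to 261 and 260 TPM (1.37 ± 0.095, adjusted p = 1.83e-05). LOXL1 was at 119 and 116 against 247 and 228 TPM (1.01 ± 0.19), missed the threshold with any 1 library left out (0.024 to 0.0348) and fell inside the 2-fold limit under both rescalings. Of 20 collagens, 15% were called against 4.12% of all genes. COL11A1 (23.5 and 24.5 against 94.7 and 104 TPM) and COL8A1 (66.8 and 69.3 against 141 and 144 TPM) rose. COL4A2, a basement membrane chain, fell (192 and 180 against 90.6 and 89.7 TPM). The median over the list was -0.41 (-0.215 without metastasizing replicate b and -0.253 without transformed replicate b). The most abundant chain, COL1A1, was at 1040 and 883 against 705 and 549 TPM (adjusted p = 0.345). COL4A2 missed the threshold with any 1 library left out (0.0139 to 0.0206).

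Of 20 matrix glycoproteins 3 fell and 1 rose (20% called against 4.12% of all genes, median -0.392). Periostin (POSTN) fell from 5.43 and 5.28 to 0.574 and 0.847 TPM (-2.28 ± 0.22, adjusted p = 9.15e-05), biglycan (BGN) from 24.9 and 24.5 to 9.26 and 7.61 TPM and fibulin 1 (FBLN1) from 86.9 and 77.2 to 36.8 and 34.4 TPM (-1.19 ± 0.25). Fibromodulin (FMOD) was called higher at about the 1 TPM limit, 0.143 and 0.155 against 1.08 and 1.01 TPM. FBLN1 (0.0339 to 0.0575) and FMOD (0.0106 to 0.0127) missed the threshold with any 1 library left out, FBLN1 also with the replicate block (0.0112), without a trend (0.0116) and without a filter (0.014), and FMOD with only the 4 libraries (0.0343) and, on size, with a pseudocount of 1.

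Of 14 matrix proteases and their inhibitors, 14.3% were called against 4.12% of all genes. Interstitial collagenase MMP1 (chromosome 11, 102660132 to 102668891 in GRCh37) fell from 407 and 399 to 107 and 112 TPM (-1.88 ± 0.34, adjusted p = 0.00372), and the membrane protease ADAM12 rose from 13 and 14.7 to 36 and 37.8 TPM (1.38 ± 0.27). Both missed the threshold with any 1 library left out (0.0266 to 0.0294 and 0.0274 to 0.0436). None of 6 plasminogen system genes was called. The urokinase receptor PLAUR was at 91.7 and 100 against 134 and 113 TPM (adjusted p = 0.0956), and 2 of the 6 had an unadjusted p under 0.05 (33.3% against 33.5% of all genes). Of 14 integrins 3 were called higher (21.4% against 2.4% of all genes). ITGA1 rose from 5.28 and 5.7 to 16.6 and 22.7 TPM, ITGA4 from 21.2 and 20.7 to 45.2 and 49.5 TPM and ITGB8 from 0.382 and 0.321 to 1.57 and 1.69 TPM. ITGA1 kept the call with any 1 library left out, while ITGA4 (0.0167 to 0.0326) and ITGB8 (0.0218 to 0.0352) did not, and ITGB8 also missed it with only the 4 libraries (0.0209) and, on size, with a pseudocount of 1.

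Smooth muscle type actins moved in opposite directions. ACTG2 fell from 168 and 171 to 33.7 and 31.7 TPM (-2.35 ± 0.18, adjusted p = 2.92e-05), and ACTA2 was called higher at 10.6 and 9.98 against 37.9 and 32.6 TPM (1.73 ± 0.38, adjusted p = 0.00974). The coding sequences of actins are nearly alike, so the split of reads between them rests on the quantification. ACTA2 missed the threshold with any 1 library left out (0.0467 to 0.0623) and in 6 of 10 other fits (adjusted p up to 0.0188). The other 13 contractile genes were not called (median of all 15, -0.368, with 13.3% called against 4.12% of all genes).

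Of 14 genes of mesenchymal and epithelial state, 21.4% were called against 4.12% of all genes. The keratins KRT7 and KRT18 fell, in cells where none of the epithelial markers reached 1 TPM, and the vimentin gene VIM did not pass the test (3450 and 3440 against 3250 and 3140 TPM, adjusted p = 0.554). KRT18 fell from 309 and 329 to 105 and 85.4 TPM (-1.75 ± 0.13, adjusted p = 2.92e-05) beside KRT7, whereas KRT8, the usual partner of KRT18, was called higher at 8.93 and 9.2 against 67.3 and 31.1 TPM (2.27 ± 0.37). KRT8 and KRT18 have many processed pseudogenes that can share reads, and the KRT8 call was lost in 3 of 4 fits that left out a library (adjusted p up to 0.0181). Of 10 motility genes, 20% were called against 4.12% of all genes. S100A4, a calcium-binding protein of motile cells, was called higher (23.9 and 28.7 against 132 and 112 TPM, adjusted p = 0.00964) and the adhesion molecule MCAM fell from 31.3 and 32 to 15 and 13.2 TPM (-1.14 ± 0.15). S100A4 missed the threshold with any 1 library left out (0.0464 to 0.0673) and in 3 of 10 other fits (up to 0.0193).

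In the TGF-beta and BMP list 22 were tested (median -0.173, and -0.0998 without metastasizing replicate a) and 18.2% were called against 4.12% of all genes. Its ID genes, immediate targets of BMP receptors and SMAD proteins, fell together. ID3 went from 186 and 168 to 31.8 and 24.6 TPM (-2.64 ± 0.38, adjusted p = 0.000885) and ID2 from 61.3 and 60.6 to 29.2 and 30.1 TPM (-1.02 ± 0.16, adjusted p = 0.00134), beside ID1 above. GDF15 was the member called higher. ID2 missed the threshold with any 1 library left out (0.0127 to 0.0145) and ID3 without transformed replicate a or metastasizing replicate b (up to 0.0132). Of the remaining lists, none of 8 WNT genes, 16 HOX genes and 15 antioxidant genes was called, and 4, 4 and 5 of them had an unadjusted p under 0.05 (50%, 25% and 33.3%, against 33.5% of all genes). The secreted WNT antagonist DKK1 passed on adjusted p (0.00193) and was lower by less than 2-fold, at 837 and 777 against 421 and 454 TPM. NQO1, an NRF2 target, was at 349 and 334 against 554 and 547 TPM (adjusted p = 0.0176). Of 20 ribosomal protein genes RPL13 alone was called (5% against 4.12% of all genes). It fell from 1960 and 1850 to 920 and 817 TPM (-1.13 ± 0.10) and has pseudogenes that can share its reads. All 13 mitochondrially encoded genes were higher (median 0.807), none was called and 0 had an unadjusted p under 0.05. That median moved with single plates, to 0.188 without transformed replicate a, 0.318 without metastasizing replicate b, 1.38 without metastasizing replicate a and 1.52 without transformed replicate b. Their levels also differed between plates, as in MT-CO1 with 1850 and 3750 against 3280 and 6450 TPM.

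The same step was then compared at 3% oxygen, where 727 of 12288 genes were called (5.92%), 244 higher (1.99%) and 483 lower (3.93%). The study tested counts at like cutoffs and reports the reverse order, with fewer genes for this step at low than at atmospheric oxygen. Which oxygen level holds the larger step can therefore not be taken from the counts given here. Of the 293 genes called higher at atmospheric oxygen, 275 were also tested at 3% oxygen. Their median log2 fold change was 1.38 at atmospheric and -0.00458 at 3% oxygen. At 3% oxygen 49.8% of them were higher (44.4% of all genes tested there), 12 were called higher and 22 lower. Of the 210 genes called lower, 197 were tested, with medians of -1.44 and -0.285. At 3% oxygen 60.4% of them were lower (55.6% of all genes), 47 were called lower and 19 higher. The 12 genes called higher at both levels make up 4.1% of the calls at atmospheric and 4.92% of those at 3% oxygen, and the 47 called lower make up 22.4% and 9.73%. All groups share the same spread per gene in the fit. That spread is likely too small for the metastasizing libraries at 3% oxygen, where 11.0% of genes differed more than 2-fold between plates. Tests that use these libraries therefore pass too easily, those of the 727 calls among them. The difference of the step between the oxygen levels was itself tested and passed for 1066 of 12590 genes (8.47%). It was in favour of 3% oxygen for 358 (2.84%) and against 3% oxygen for 708 (5.62%). Among them were 163 of the 293 and 100 of the 210. Those genes were chosen for a large step in the atmospheric libraries, which also enter the difference. That choice favours a passed difference and medians of larger size at atmospheric oxygen. The 2 counts are therefore not comparable with 8.47%. The metastasizing plates at 3% oxygen differed most between themselves, and without replicate b of that group the difference passed for 1698 genes, without replicate a for 1277.

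**Figure D4:**
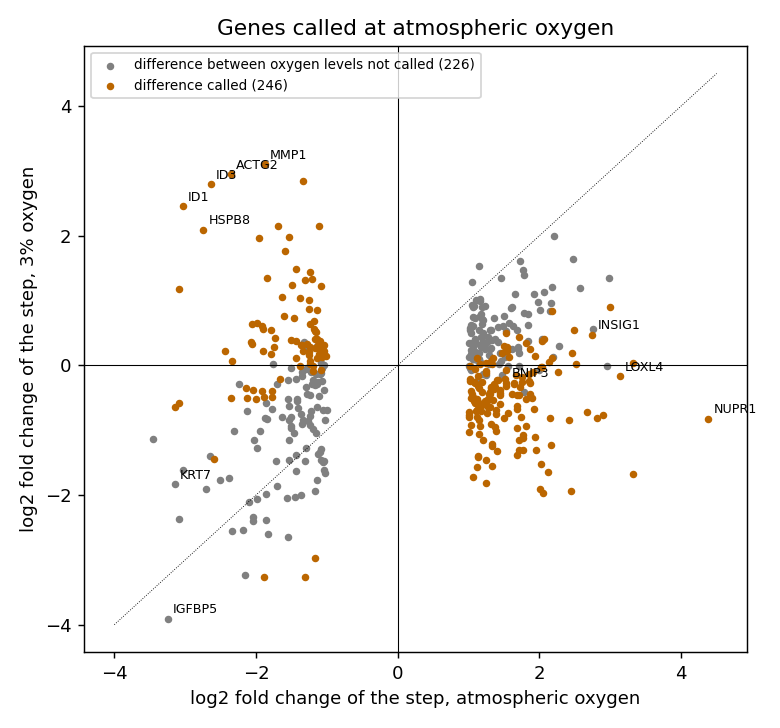
Log2 fold change of the step at 3% oxygen against that at atmospheric oxygen for the 472 genes called at atmospheric oxygen and tested at both levels. Orange points are genes whose difference between the oxygen levels was called. The genes were chosen by their values on the horizontal axis, which also enter that difference. ID1, ID3, ACTG2, MMP1 and HSPB8 lie in the upper left, lower at atmospheric and higher at 3% oxygen, and IGFBP5 and KRT7 in the lower left.

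The largest differences in favour of 3% oxygen were in genes that fell at atmospheric oxygen. MMP1 was at 385 and 788 TPM in transformed and 3470 and 6420 TPM in metastasizing libraries at 3% oxygen, a rise (3.10) where atmospheric oxygen gave a fall (-1.88 ± 0.34), and the difference was 4.97 (adjusted p = 0.000106). ID1 rose from 2.62 and 2.74 to 21.1 and 13.5 TPM, ID3 from 7.46 and 7.63 to 90 and 33.8 TPM and ACTG2 from 9.82 and 11 to 106 and 65.3 TPM, with differences of 5.48, 5.43 and 5.30. HSPB8, a small heat shock protein, was at 5.54 and 5.15 against 0.355 and 0.388 TPM at atmospheric and 0.646 and 0.899 against 3.39 and 6.98 TPM at 3% oxygen (4.84). The transformed libraries also differ between oxygen levels for these genes: ID3 was at 186 and 168 TPM at atmospheric and 7.46 and 7.63 TPM at 3% oxygen, and ACTG2 at 168 and 171 and 9.82 and 11 TPM. PLAUR, which was not called at atmospheric oxygen, rose at 3% oxygen from 75.8 and 93.2 to 276 and 218 TPM (1.54, adjusted p = 5.23e-05).

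The largest differences in the other direction were in NUPR1 (-5.20), DPT (-5.02), INHBE (-5.00), LGALS9 (-4.55) and IFITM1 (-4.53). NUPR1 was at 49.4 and 40.5 TPM in transformed and 58.7 and 10.5 TPM in metastasizing libraries at 3% oxygen. Dermatopontin (DPT), a matrix protein, was at 6.11 and 6.18 against 6.85 and 6.29 TPM at atmospheric oxygen and fell from 34.2 and 69.7 to 0.674 and 1.73 TPM at 3% oxygen. IFITM1 fell at 3% oxygen from 191 and 1250 to 47.4 and 31.7 TPM, and the transformed plates differed widely there. The galectin gene LGALS9 was at 2.12 and 13.8 against 0.598 and 0.166 TPM. Over 28 interferon-stimulated genes the median was -2.23 at 3% oxygen, yet only 6 were called lower, against 0.192 and none at atmospheric oxygen. How far the median at 3% oxygen rests on single plates was not tested. Over the 19 hypoxia targets tested at 3% oxygen the median was -0.34. BNIP3 stood there at 445 and 426 against 274 and 476 TPM, and the difference passed for BNIP3 (-1.80, adjusted p = 0.000831). INSIG1 (0.47) and SCD (0.19) were not called at 3% oxygen and their differences passed (-2.27 and -2.27). IGFBP5 (-3.91), KRT7 (-1.83), NUP210 (-2.37), ID2 (-1.66), MCAM (-1.77) and COL4A2 (-1.47) were called lower at both oxygen levels.

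**Figure D5:**
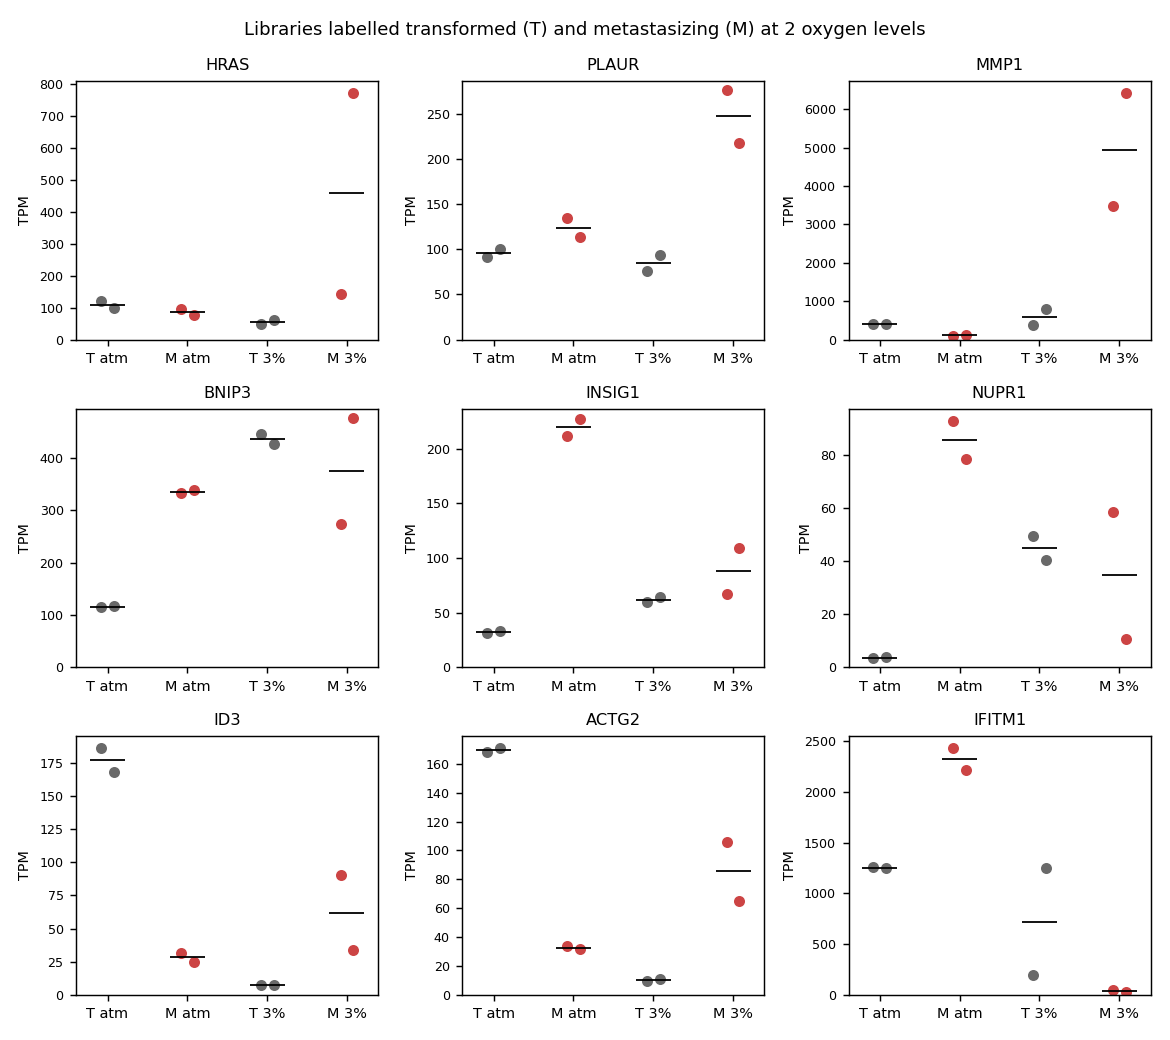
TPM of 9 genes in the libraries labelled transformed (T, grey) and metastasizing (M, red) at atmospheric oxygen (atm) and at 3% oxygen, 1 point for each library and a bar at the mean of 2. HRAS lies between 78.1 and 120 TPM in the 4 atmospheric libraries and at 143 and 772 TPM in the metastasizing libraries at 3% oxygen, and ID3 and ACTG2 show opposite steps at the 2 oxygen levels.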

How the data were processed

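Transcript expression was estimated by the authors with kallisto 0.42.1 and deposited as TPM per transcript, which add up to 1000000 in each library. The submitters' processing notes name GRCh37, and per the study's methods the quantification kept the default settings, which set no strand option, so overlapping genes on opposite strands cannot be told apart where their transcripts overlap. Of 180253 transcripts listed (1 stray header line was skipped), 151453 were matched to GENCODE 44 lifted to GRCh37 by identifier without version, and TPM were summed over 34451 genes, of which 19356 are protein-coding. TPM hold no counts, so the count test of the study was not repeated and depth, intervals and floors are not given.

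Values were compared as log2(TPM + 0.5). The limma package (3.58.1, under R 4.3.3) fitted all 16 libraries at once with a coefficient for each of 8 groups, which leaves 8 residual degrees of freedom, and its moderated tests used a trend of variance on level. Adjustment was by Benjamini-Hochberg over all genes tested. Sums, sequences and figures were made under Python 3.11.15 (pandas 2.3.3, numpy 2.4.6, matplotlib 3.10.9). Genes needed a mean of at least 1 TPM in a group compared, and calls an adjusted p under 0.01 and a log2 fold change beyond 1. The smallest two-sided p that exact permutation of 2 plates against 2 allows is 0.333, so no such test is given. Data were simulated for this comparison (11798 genes tested, of which 195 were changed). Before the changes, each gene had the same mean in every group and the same normal spread in all libraries. Found were 74% of the genes raised by 1.5 on the log2 scale, 84% of those raised by 2 and 92% of those raised by 3. Of those with a change of -2, 93.3% were found, and 0 unchanged genes were called. In the real data the spread differed between groups, so these shares hold for the simulated setting only.

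The labels do not say that a replicate letter marks a shared batch or day. Deviations of same-letter libraries from their group means correlated at 0.0664 at atmospheric and 0.069 at 3% oxygen, so the fit has no replicate block.

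The comparison and the 36 gene lists were chosen with earlier results of these data known. Named genes are the 10 largest rises and falls among called genes of at least 5 TPM in the higher group with groups that do not overlap, HRAS, NRAS and TERT, up to 6 called members of each list (or its 3 highest where fewer than 2 were called), the genes the study names for this step, and the 5 largest differences between oxygen levels in each direction. Not all of these 129 genes are printed, and some are not reported here. Alternatives were pseudocounts of 1 and 0.1, no filter or one of 5 TPM, median-ratio rescaling, quantile normalization, only the 4 libraries, the replicate block, no trend, all genes, an adjusted p under 0.05 and each library left out. Array weights and fits without metastasizing libraries at 3% oxygen were added after seeing the data. Promoter sequences come from RefSeq (GRCh38.p14), matched by symbol, and only the 250 bases before the start were searched.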

Additional observations from a re-analysis of the deposited data

Results flagged for a closer look

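The step from transformed to metastasizing libraries differed between atmospheric and 3% oxygen for 1066 of 12590 genes (limma interaction, adjusted p under 0.01 and a difference beyond 2-fold). Each gene below was picked out because that test passed, and its value is the log2 fold change at 3% oxygen minus that at atmospheric oxygen. The plates labelled metastasizing at 3% oxygen differ from each other more than those of any other group, and the part of that spread in these values was not tested. All fits of 1 gene rest on 2 plates per group.

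Differences in favour of 3% oxygen were 5.48 for ID1, 5.43 for ID3, 5.30 for ACTG2, 4.97 for MMP1, 4.84 for HSPB8, 4.27 for CRIP1, 3.29 for DHRS2, 2.51 for SSTR1, 2.50 for KRT81, 2.50 for POSTN, 2.02 for KRT18 and 1.18 for PLAUR.

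Among genes of low oxygen and glycolysis the differences were -4.38 for CA9, -2.36 for NDRG1, -1.80 for BNIP3, -1.78 for STC2, -1.71 for VEGFA, -1.66 for P4HA1, -1.60 for BNIP3L, -1.60 for LOX, -2.50 for ALDOC and -1.71 for SLC2A3. Among genes of lipid synthesis they were -2.27 for SCD, -2.27 for INSIG1, -1.27 for DHCR7 and -1.20 for CYP51A1. Matrix and adhesion genes gave -3.55 for COL11A1, -3.30 for LOXL4, -2.87 for ITGB8, -2.78 for COL8A1, -2.53 for ITGA1, -2.07 for ADAM12, -2.05 for LOXL1, -1.45 for FMOD and -5.02 for DPT.

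Stress and cell cycle genes gave -5.20 for NUPR1, -5.00 for INHBE, -3.28 for GDF15, -2.36 for CDKN2B, -2.21 for TP53INP1, -2.03 for VLDLR, -1.91 for ASS1 and -1.59 for TRIB3. Immune genes gave -4.55 for LGALS9, -4.53 for IFITM1, -2.48 for CXCL12 and -1.73 for B2M. The remaining genes were TMEM45A (-3.66), GUCY1A2 (-3.62), SPRY1 (-3.06), ETV1 (-2.75) and HMSD (-2.10).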

How the results depend on the processing

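With a library left out, the lone plate of its group is assumed to vary like the other groups. The 503 calls (293 higher, 210 lower) then became 256 to 313 (142 to 180 higher, 114 to 133 lower), and the 1066 differences between oxygen levels (358 in favour of 3% oxygen, 708 against) became 584 to 781 (206 to 251 and 369 to 530). Fewer libraries enter these fits. At an adjusted p under 0.05, 448 genes were higher, and 1722 differences passed (548 and 1174). With array weights, added after seeing the data, 445 genes were higher, and without metastasizing replicate b at 3% oxygen 1698 differences passed (563 and 1135). The causes were not tested. Under the other alternatives the calls numbered 389 to 670, within 1.5 times of 503 in total. Of the calls, 58.3% were higher, against 49.9% with median-ratio rescaling and 48.1% with quantile normalization, and of the differences 33.6% favoured 3% oxygen, against 46.3% and 47.5%. With the replicate block 483 genes were called (472 of them shared with the fit without the block) and 978 differences passed, although same-letter plates were not paired by the check. With only the 4 libraries 544 were called, 403 of them shared. Of the 69 called genes given by the naming rule and printed here, 37 kept the call under every alternative and 32 lost it in at least 1 fit without a library. Uncalled fold changes near 0 changed sign for MAP2K2 with a library left out (-0.22 to 0.072), and with quantile normalization for DPT (-0.024) and MX1 (0.034). TPM keep no depth, so what depth limits cannot be stated, and with 2 plates a group the precision rests on variances shared over genes and groups.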
